A study of Glycine max with 4 samples.

Results

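The 6 soybean (Glycine max) genes described here make inositol phosphate or carry phytate. They are the 4 genes listed as myo-inositol-3-phosphate synthases (MIPS1 to MIPS4 in the order Glyma.11G238800.Wm82.a2.v1, Glyma.18G018600.Wm82.a2.v1, Glyma.05G180600.Wm82.a2.v1 and Glyma.08G137200.Wm82.a2.v1) and the 2 listed as phytate ABC transporters of the lpa (low phytic acid) loci, Glyma.03G167800.Wm82.a2.v1 and Glyma.19G169000.Wm82.a2.v1. They were chosen by identifier from a list, among 47973 genes with a value in at least 1 library. All 6 were found, and all 6 passed the filter on low counts. The gene names come from that list, since the deposited tables pair no identifier with a name, and the suffix Wm82.a2.v1 of each identifier (second assembly of the cultivar Williams 82) is left out from here on. The number before the G is the chromosome.

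Messenger RNA was sequenced from roots of transgenic plants with suppressed GmHAD1-2 (Ri, the submitters' name) and of wild-type plants (WT), with 2 libraries, called biological replicates, of each genotype. Both genotypes had grown 12 days in nutrient solution with KH2PO4, given by the submitters as 250 mM, a unit that is in doubt because such solutions usually hold micromolar phosphate. The promoter of the suppression construct, the number of lines and the number of plants per library were not given in the sources used here. GmHAD1-2 carries the name of the haloacid dehalogenase superfamily, which holds many phosphatases. The gene was not analysed here, so the suppression rests on the labels, and the labelled tissue was not checked because no marker gene could be named. No growth condition with less phosphate was analysed here.

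Plants make inositol from glucose 6-phosphate. Myo-inositol-3-phosphate synthase (MIPS) closes the sugar into an inositol ring that carries a phosphate, and this step commits glucose to inositol. Kinases then add phosphates until phytate (inositol hexakisphosphate) is reached, the main phosphorus store of soybean seeds, and further kinases turn it into inositol pyrophosphates, which report phosphate status in plants. Phytate is moved into the vacuole by an ABC transporter of the multidrug resistance-associated protein type. In soybean, mutants of a MIPS gene or of both transporter genes have seeds low in phytate.

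The libraries held 10077854 to 11070260 expected counts and listed 41921 to 44830 genes. The Ri libraries differed more from each other than the WT libraries did. Over the 24193 genes of at least 5 CPM (counts scaled to the library size, with TMM factors that balance libraries on the bulk of their genes), log2 differences had an SD of 0.64 between the Ri replicates and 0.35 between the WT replicates. Values without single libraries are therefore given beside several results. The 6 genes rested on 73.3 to 661 expected counts per library, which gives a counting error of 3.89% to 11.7%.

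Levels of different genes were compared in FPKM, fragments divided by transcript length and by library size, as the authors deposited it. Synthase transcripts were more abundant than transporter transcripts in all 4 libraries. Over all 4 libraries Glyma.18G018600 had the highest mean, 26.96 FPKM, followed by Glyma.11G238800 with 16.1, Glyma.05G180600 with 10.8 and Glyma.08G137200 with 6.26. The transporters came last, Glyma.19G169000 with 4.09 FPKM and Glyma.03G167800 with 1.95. This order was the same in Ri replicate 2 and in both WT libraries. In Ri replicate 1 Glyma.05G180600 stood above Glyma.11G238800, and over the 4 libraries the ranges of these neighbours overlapped. The ranges of Glyma.18G018600 and Glyma.11G238800 also overlapped, although the first was higher within each library. The ranges of the other neighbours in the order did not overlap. The most abundant synthase exceeded 85.8% to 91.5% of the genes listed in a library, and the weaker transporter exceeded 31.5% to 36.7%.

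**Figure D1:**
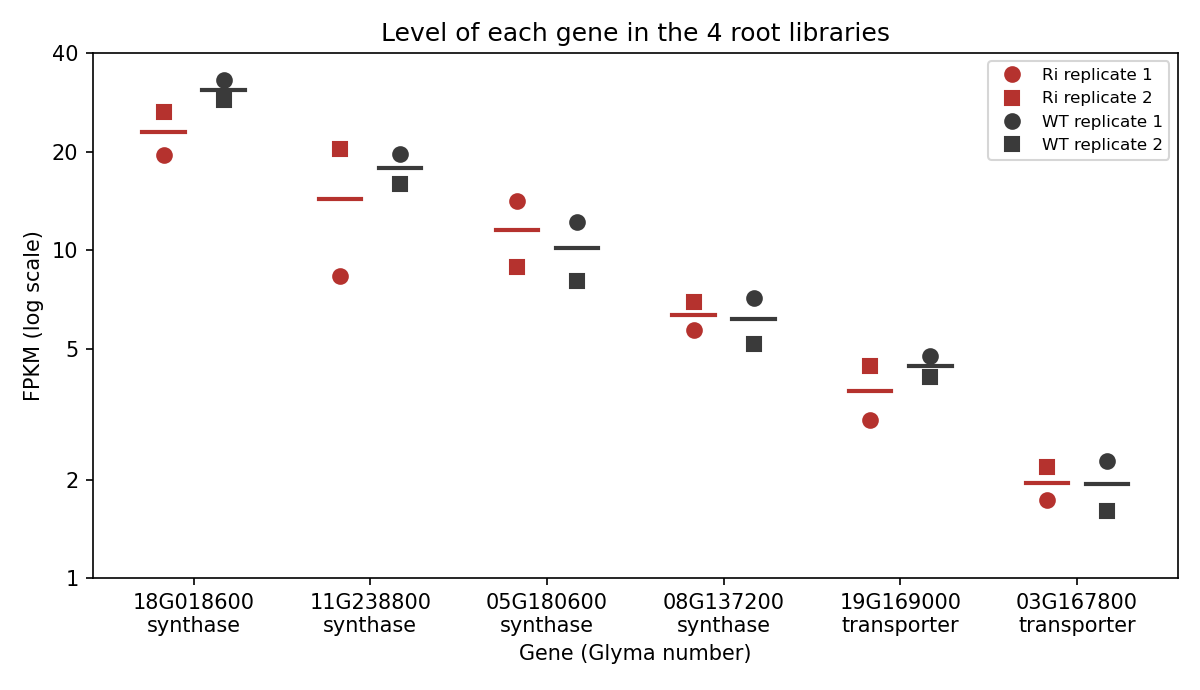
FPKM of each gene on a log axis, with Ri left of WT; circles are replicate 1, squares replicate 2 and bars the mean of 2 libraries. The Ri and WT points overlap for 5 genes, and for Glyma.18G018600 both Ri points lie below both WT points.

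None of the 6 genes passed the test for a difference between Ri and WT roots. In edgeR's quasi-likelihood test, with Benjamini-Hochberg adjustment over 34151 genes and a threshold of 0.05, 0.117% of all tested genes passed. Also 0 of the 6 genes had an unadjusted p under 0.05, against 6.25% of all tested genes. The limma fits, on voom values and on FPKM, called 0 of all 34151 genes and so do not bear on the 6. DESeq2 was run without the filter on low counts, on 47915 genes. Of these 0.628% passed, and 0 of the 6. Of the 6 fold changes 3 were below 0, and their median was -0.13 on the log2 scale. Over all tested genes 47.9% were below 0 and the median was 0.02. In RNA of whole roots, fewer cells of a type and less RNA per cell cannot be told apart.

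Among the synthases, the largest fold change with all 4 libraries was that of the most abundant gene, Glyma.18G018600. Without Ri replicate 2 that of Glyma.11G238800 was larger (-1.06 against -0.63 on the log2 scale), and without WT replicate 1 that of Glyma.05G180600 (0.47 against -0.38). Glyma.18G018600 had 19.5 and 26.4 FPKM in Ri replicates 1 and 2, against 33.1 and 28.8 FPKM in WT replicates 1 and 2. Both Ri libraries lay below both WT libraries, and it was the 1 gene of the 6 whose groups did not overlap. Of all tested genes 36.2% did not overlap, 18.5% with Ri below WT. Its mean was 22.97 ± 4.91 FPKM in Ri and 30.9 ± 3.03 FPKM in WT (SD, n = 2 libraries each). The fold change on the log2 scale was -0.44 (standard error, SE, 0.20; edgeR, adjusted p = 0.817). The 95% interval of the fold ran from 0.531 to 1.02, so that a decrease to near 0.531 of the WT level and a level equal to WT both lie within it.

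Glyma.11G238800, the gene known as MIPS1 and in soybean the synthase noted for its high expression in developing seeds, had 8.33 and 20.4 FPKM in Ri replicates 1 and 2. In WT replicates 1 and 2 it had 19.7 and 15.9 FPKM. Ri replicate 1 was the low library and Ri replicate 2 the highest of the 4, so the genotypes overlapped. The fold change on the log2 scale was -0.32 (SE 0.39; edgeR, adjusted p = 0.933), and the 95% interval of the fold, 0.410 to 1.56, was wide. The 2.32-fold gap between the Ri replicates (CPM) rested on 164 and 442 expected counts, with counting errors of 7.81% and 4.76%. Of the genes of at least 5 CPM, 5.01% had an equal or larger gap between the Ri replicates. Without Ri replicate 2 the gene passed, with a log2 fold change of -1.06 and an edgeR adjusted p of 0.00908. In that fit 4.57% of all tested genes passed, 2.78% as lower in Ri, and the lone Ri library is assumed to vary like the WT libraries. Without Ri replicate 1 its log2 fold change was 0.16 (adjusted p = 0.760).

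Glyma.05G180600 showed the opposite order of the Ri libraries. It had 14.2 and 8.91 FPKM in Ri replicates 1 and 2, against 12.2 and 8.09 FPKM in WT replicates 1 and 2. The highest of the 4 values was thus in Ri replicate 1, where Glyma.11G238800 was lowest. The genotypes overlapped, with a fold change of 0.19 on the log2 scale (SE 0.32; edgeR, adjusted p = 0.950, 95% interval of the fold 0.670 to 1.94). Its sign turned without Ri replicate 1 (-0.22) and without WT replicate 2 (-0.039). The replicates differed 1.68-fold in Ri and 1.44-fold in WT (CPM). Gaps as large were found between the Ri replicates in 14.4% of genes of at least 5 CPM and between the WT replicates in 9.76%.

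Glyma.08G137200, the least abundant synthase, had 5.71 and 6.97 FPKM in Ri replicates 1 and 2 and 7.17 and 5.18 FPKM in WT replicates 1 and 2. Both Ri values lay between the WT values. Its fold change on the log2 scale was 0.03 (SE 0.26; edgeR, adjusted p = 0.992), and the 95% interval of the fold ran from 0.660 to 1.58. The sign turned without Ri replicate 2 (-0.086) and without WT replicate 2 (-0.15).

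Of the transporters, which are the vacuolar step of phytate storage, Glyma.19G169000 was the more abundant. It had 3.03 and 4.43 FPKM in Ri replicates 1 and 2, against 4.77 and 4.12 FPKM in WT replicates 1 and 2. Ri replicate 1 was again the lowest library, while Ri replicate 2 lay within the WT range. Its fold change on the log2 scale was -0.26 (SE 0.22; edgeR, adjusted p = 0.906, 95% interval of the fold 0.580 to 1.20). It was -0.041 without Ri replicate 1 and -0.52 without Ri replicate 2. Glyma.03G167800 had 1.73 and 2.18 FPKM in Ri replicates 1 and 2, against 2.28 and 1.60 FPKM in WT replicates 1 and 2. Both Ri values lay between the WT values, and the fold change on the log2 scale was 0.0037 (SE 0.25; edgeR, adjusted p = 0.999, 95% interval of the fold 0.663 to 1.52). The sign turned without Ri replicate 2 (-0.13) and without WT replicate 2 (-0.19).

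**Figure D2:**
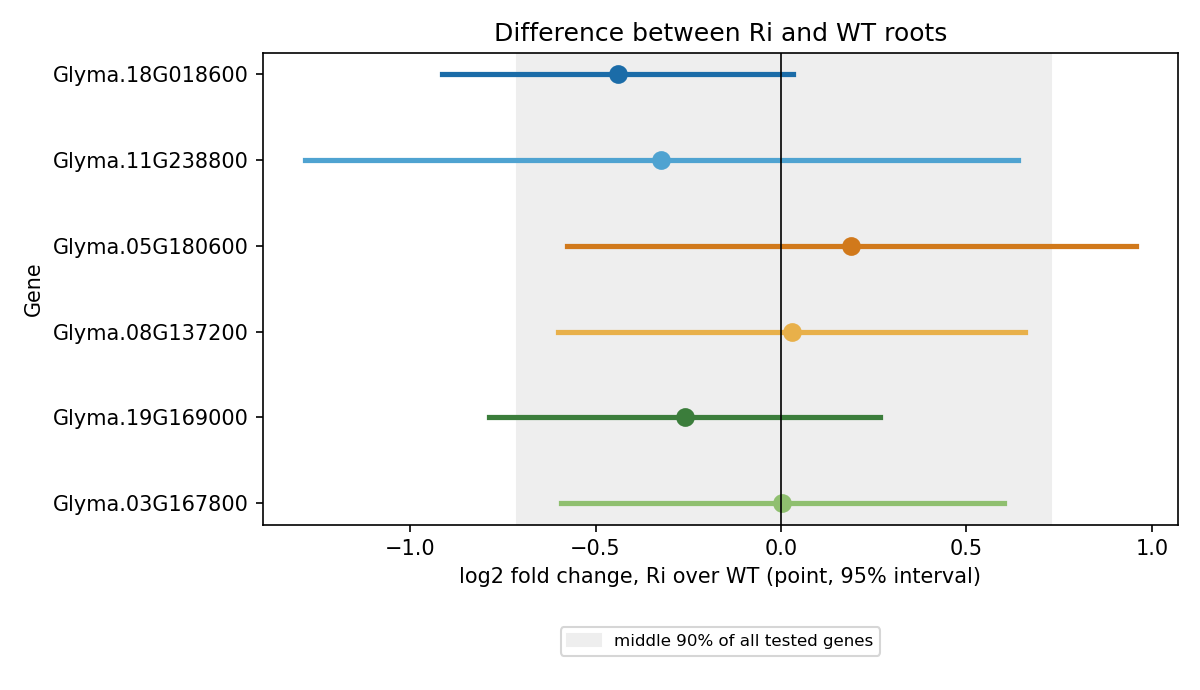
Fold change of each gene, Ri over WT on a log2 axis, with the point estimate and its 95% interval from edgeR; the grey band holds the middle 90% of the fold changes of all tested genes, from -0.71 to 0.73. All 6 points lie within the band and all 6 intervals include 0.

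The 4 synthases together had 47.7 and 62.8 FPKM in Ri replicates 1 and 2, against 72.1 and 57.96 FPKM in WT replicates 1 and 2. Ri replicate 1 was the lowest, and Ri replicate 2 lay between the WT libraries. The mean sum was 55.2 ± 10.7 FPKM in Ri and 65.0 ± 10.02 FPKM in WT (SD, n = 2 each; exact two-sided permutation test p = 0.667). The 2 transporters together had 4.76 and 6.61 FPKM in Ri replicates 1 and 2, against 7.05 and 5.72 FPKM in WT replicates 1 and 2. The order of the 4 libraries was the same as for the synthases, and the exact permutation p was also 0.667. On the log2 scale the ratio of Ri to WT was -0.24 for the synthases, and -0.052 without Ri replicate 1. For the transporters it was -0.17, and 0.050 without Ri replicate 1. Neither sum differed by more than the spread between replicates. With 2 libraries against 2 the smallest p this test can give is 0.333.

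The make-up of each family was compared within libraries. Glyma.18G018600 supplied 40.9% and 42.1% of the synthase FPKM in Ri replicates 1 and 2, against 45.9% and 49.7% in WT replicates 1 and 2. Both Ri shares lay below both WT shares, with a mean difference of -6.28 percentage points (exact two-sided permutation p = 0.333, the smallest possible). Glyma.11G238800 supplied 17.5% and 32.6% in Ri replicates 1 and 2, against 27.3% and 27.4% in WT replicates 1 and 2. The WT libraries were nearly equal in this share and the Ri libraries lay on either side of them. Glyma.05G180600 supplied 29.7% and 14.2% in Ri replicates 1 and 2, against 16.9% and 13.96% in WT replicates 1 and 2. Ri replicate 1 thus differed from the other libraries in which synthase came second. Glyma.08G137200 supplied 11.98% and 11.1% in Ri replicates 1 and 2 and 9.94% and 8.94% in WT replicates 1 and 2. Both Ri shares lay above both WT shares, but this share was not tested. Its FPKM overlapped between the genotypes, and a share also depends on the levels of the other synthases.

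Glyma.19G169000 supplied 63.7% and 67.0% of the transporter FPKM in Ri replicates 1 and 2, against 67.7% and 72.0% in WT replicates 1 and 2. It was the larger part in every library. Both Ri shares lay below both WT shares, with a mean difference of -4.51 percentage points (exact two-sided permutation p = 0.333, the smallest possible). It was -2.82 points without Ri replicate 1 and -2.32 points without WT replicate 2. The highest Ri share and the lowest WT share lay close together, so the groups were separated by less than the replicates of either genotype.

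**Figure D3:**
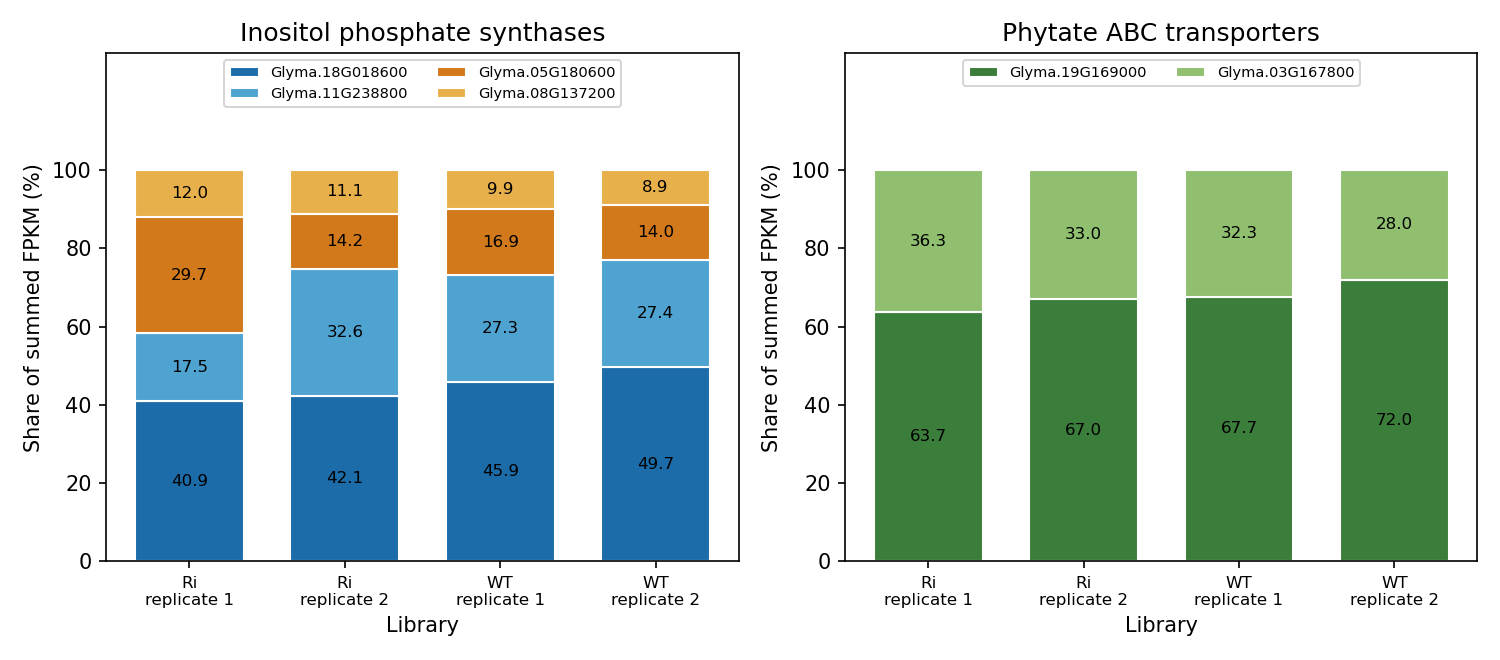
Share of each gene in the summed FPKM of its family, in percent, for each library; the left panel stacks the 4 synthases and the right panel the 2 transporters. Glyma.18G018600 is the largest synthase part in each library (40.9% to 49.7%), and in Ri replicate 1 Glyma.05G180600 (29.7%) exceeds Glyma.11G238800 (17.5%).

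Ratios between paralogues were also taken within libraries. Glyma.18G018600 was 2.34 and 1.29 times Glyma.11G238800 in Ri replicates 1 and 2, against 1.68 and 1.81 times in WT replicates 1 and 2. Glyma.05G180600 was 2.48 and 1.28 times Glyma.08G137200 in Ri replicates 1 and 2, against 1.70 and 1.56 times in WT replicates 1 and 2. In both ratios the Ri libraries lay on either side of the WT libraries, with replicate 1 the highest. Between the transporters the ratio of Glyma.19G169000 to Glyma.03G167800 was 1.75 and 2.03 in Ri replicates 1 and 2. In WT replicates 1 and 2 it was 2.09 and 2.58, with both Ri values below both WT values. With only 2 transporters this ratio restates the share given above, so the lack of overlap is the same result.

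In pattern over the 4 libraries, the closest pair and the next each joined a synthase and a transporter. Each gene's log2 CPM was centred on its own mean, and patterns were compared by their root mean square distance. Glyma.08G137200 and Glyma.03G167800, a synthase and a transporter, were the closest pair, 0.025 apart. Both were highest in WT replicate 1 and lowest in WT replicate 2. Of the other genes of at least 5 CPM, 17 (0.070%) were closer to Glyma.08G137200 and 15 (0.062%) to Glyma.03G167800. The counts of this pair had counting errors of 8.38% to 11.7% per library, so its closeness is finer than the counts resolve. Glyma.18G018600 and Glyma.19G169000 came next with 0.094, both lowest in Ri replicate 1. Here 296 genes (1.22%) were closer to Glyma.18G018600 and 542 (2.24%) to Glyma.19G169000. Glyma.11G238800 and Glyma.18G018600 were 0.31 apart, Glyma.05G180600 and Glyma.08G137200 0.35, and the transporters 0.20. In the first of these pairs 7.27% of genes were closer to Glyma.11G238800 and 42.3% to Glyma.18G018600. For Glyma.05G180600 and Glyma.08G137200 the shares were 37.3% and 73.8%, and for Glyma.19G169000 and Glyma.03G167800 18.6% and 23.2%. The farthest pair was Glyma.11G238800 and Glyma.05G180600, 0.77 apart. These distances are a description of 4 libraries.

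**Figure D4:**
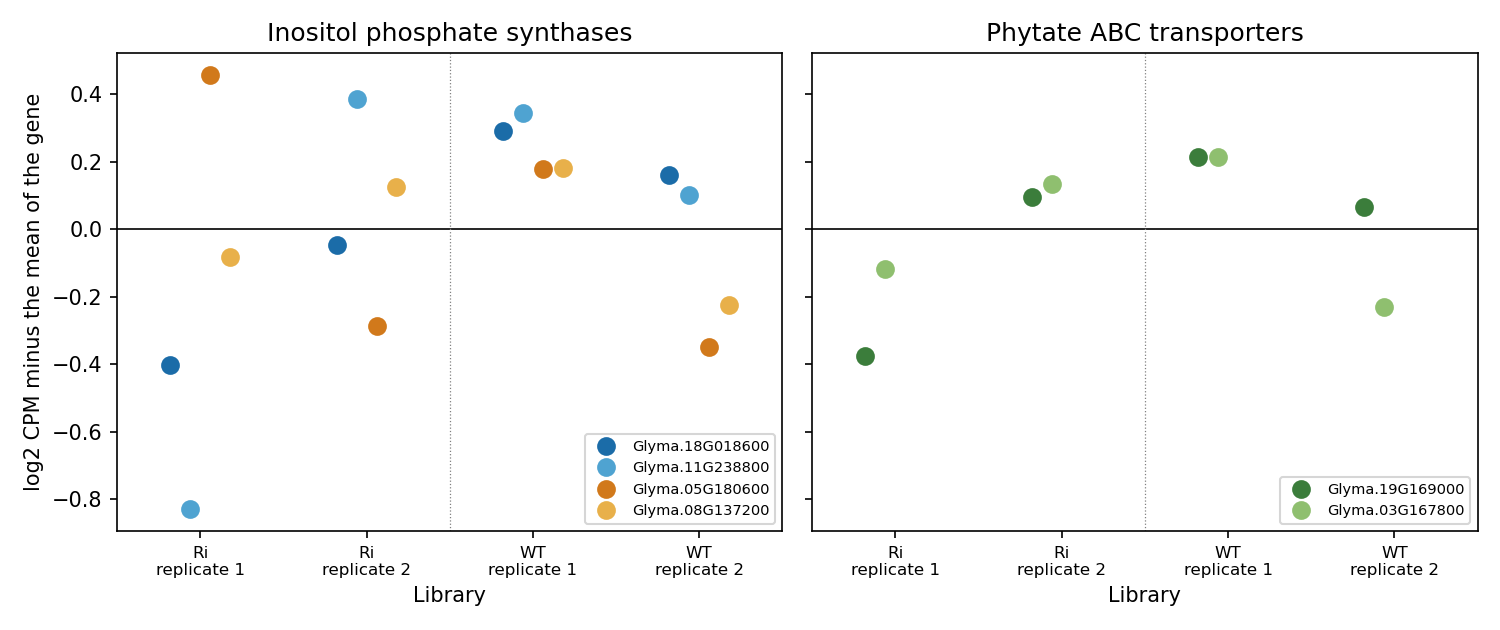
Deviation of each gene from its own mean, in log2 CPM, in the 4 libraries, with the synthases on the left and the transporters on the right. In Ri replicate 1 Glyma.11G238800 lies at -0.83 and Glyma.05G180600 at 0.46, the widest spread of the synthases in any of the 4 libraries.

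The tables list 4 transcripts each for Glyma.18G018600 and Glyma.05G180600 and 1 for each of the other genes. The listed length, which the tables give per library, was 1868.26 and 1858.85 bases in Ri replicates 1 and 2 for Glyma.18G018600, against 1858.27 and 1868.31 bases in WT replicates 1 and 2. The high and the low value thus each occurred in both genotypes. The length was the same in all 4 libraries for the other genes, with 1945 bases for Glyma.11G238800, 1405 for Glyma.05G180600 and 1331 for Glyma.08G137200. The transporter transcripts were the longest, with 5744 bases for Glyma.03G167800 and 5713 for Glyma.19G169000. Of the 24 expected counts of these genes 22 were not whole (tolerance 0.005), as arises when fragments that match similar genes are divided among them. The 2 whole values were those of Glyma.11G238800 and Glyma.03G167800 in Ri replicate 1. Levels of paralogues are uncertain to the extent of that division.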

How the data were processed

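Per the file headers, the authors deposited for each library a length, an expected count (estimated fragments per gene, not normalized) and an FPKM value per gene. The deposited FPKM was within 1.85% of the value recomputed from count, length and total for the 6 genes. The submitters' processing notes name HISAT, Bowtie2 and RSEM without role or version, and any use of strand is not given in the sources at hand. Unlisted genes were taken as 0.

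Expected counts were rounded and tested with edgeR 4.0.16 in R 4.3.3 (quasi-likelihood, TMM, default filter, robust, genotype only). The SE was the fold change over the root of F. The fit was also tried on simulated data with the same spread in both genotypes and with changes larger than those of the 6 genes. That trial therefore does not cover the unequal spread of these libraries. DESeq2 1.42.0, limma 3.58.1 and other settings were alternatives. Sums and shares used scipy 1.17.1. All 6 genes were to be named. The members and lists were chosen with earlier results of these data known. Pathway lists, markers and genes of like pattern were to be matched by product name: the reference table (59048 genes, assembly Glycine_max_v4.0) matched 0 of 47973 identifiers, so these and sequences are not used here.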

Additional observations from a re-analysis of the deposited data

How the results depend on the processing

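With all 4 libraries, 0 of the 6 genes passed under any of 9 alternatives. The limma fits among these called 0 of all genes and so do not bear on the 6. The others called only 12 to 301 of 34151 or 47915 tested genes. Every fold change kept its sign except that of Glyma.03G167800 (-0.0052 without a filter on low counts). All 9 alternatives refit the same 4 libraries, so a kept sign is not independent support. Leaving out 1 library in turn leaves 1 genotype with a lone library, so calls among the 6 genes are not read from these fits. Log2 fold changes then ranged from -1.06 to 0.16 for Glyma.11G238800, -0.22 to 0.51 for Glyma.05G180600, -0.15 to 0.25 for Glyma.08G137200 and -0.19 to 0.24 for Glyma.03G167800. Those of Glyma.18G018600 (-0.63 to -0.27) and Glyma.19G169000 (-0.52 to -0.041) stayed below 0, which for Glyma.18G018600 its lack of overlap made all but certain. The log2 ratio of summed transporter FPKM, -0.17 with all libraries, ranged from -0.42 to 0.050, and that of the synthases, -0.24, from -0.45 to -0.052. The difference in leading share ranged from -8.18 to -4.37 percentage points for the synthases and from -6.69 to -2.32 for the transporters. Over all genes edgeR called 40, 12 with upper-quartile factors and 164 without the filter. DESeq2 called 301, and limma-voom and limma on log2(FPKM + 1) or log2(FPKM + 0.1) called 0 (2069, 2227 and 2198 genes at an unadjusted p under 0.05). Leaving out 1 library gave 0 to 1994. For all of these the cause was not tested. Equal replicate numbers are not stated to pair libraries. Replicate deviations of the genotypes had a correlation across genes of -0.29. With 2 libraries per genotype that value cannot show whether libraries were paired. The replicate block called 107 of 34151 genes and 0 of the 6. A crossed replicate block, chosen after seeing that correlation, called 68 of 34151 and 0 of the 6. With so few genes called, 0 of the 6 says little about these genes. With 2 libraries per genotype the intervals of the 6 genes do not exclude changes of 1.5-fold in at least 1 direction.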
